A study of Rattus norvegicus with 6 samples.

Results

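The miR-7 family of the rat hypothalamic arcuate nucleus (ARC) was examined in 6 small RNA libraries. Its members were taken by name as every listed miRNA whose name begins with rno-miR-7a- or rno-miR-7b. This gave 4 of the 562 mature miRNAs listed, namely rno-miR-7a-5p, rno-miR-7b, rno-miR-7a-2-3p and rno-miR-7a-1-3p, written here without the species prefix. The libraries were made from ARC of Sprague-Dawley rats aged 8 to 10 weeks, on Day 14 after surgery, as 3 sham and 3 CCI-ION libraries. In CCI-ION rats (chronic constriction injury of the infraorbital nerve, a trigeminal neuropathic pain model) the left infraorbital nerve was loosely ligated with silk, and in sham rats the same nerve was exposed on one side without ligation. Both groups were anaesthetized and operated, so neither represents an intact animal, and the study's rats were male unless stated otherwise. The labels number the libraries within each group without saying how rats map to them, and the study counts more rats per group for its miRNA heatmap than there are libraries here, so a library may hold RNA of several rats. The p-values therefore measure the spread between these libraries, which may be technical.

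miR-7 is a deeply conserved miRNA that is enriched in neuroendocrine tissue, including the hypothalamus, the pituitary and the pancreatic islets. A miRNA precursor folds into a hairpin, and Dicer cuts from it a duplex of a 5p and a 3p strand. One strand, the guide, is kept by an Argonaute protein and pairs with target RNAs mainly through its seed, bases 2 to 8, while the other, the passenger strand, is usually degraded. In the brain miR-7 belongs to a circuit of noncoding RNAs: the circular RNA Cdr1as carries many miR-7 sites, the long noncoding RNA Cyrano directs the degradation of miR-7, and miR-671 cleaves Cdr1as. The mRNA of alpha-synuclein is one of its known targets.

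The mature sequences of the 4 members show what the counting had to tell apart. They were taken from RefSeq (build GRCr8) and are given 5′ to 3′ with the seed in capitals.
miR-7a-5p: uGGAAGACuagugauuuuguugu
miR-7b: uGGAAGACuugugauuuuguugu
miR-7a-2-3p: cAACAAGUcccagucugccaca
miR-7a-1-3p: aCAACAAAucacagucugccau
The guides miR-7a-5p and miR-7b were of the same length, 23 nt, and differed by A10U alone, counted from 1 at the 5′ end with the base of miR-7a-5p first. The difference lies outside the seed, so both guides had the seed GGAAGAC, whose perfect match in a target RNA is GUCUUCC. Of the 512 listed miRNAs that had a sequence in the table, only these 2 contained this seed at bases 2 to 8 or anywhere else. The passenger strands miR-7a-2-3p and miR-7a-1-3p had the seeds AACAAGU and CAACAAA, different from each other and from that of the guides. Both guides had a GC content of 34.8%, against 54.5% in miR-7a-2-3p and 40.9% in miR-7a-1-3p.

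Hairpins of the family are shown because they set which strand can be traced to which gene. Listed strands are in capitals, and the text comes from RefSeq, build GRCr8.
Mir7-1: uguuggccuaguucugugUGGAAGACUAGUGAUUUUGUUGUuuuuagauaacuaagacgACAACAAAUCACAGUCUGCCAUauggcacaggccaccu
Mir8 (synonym Mir7a2): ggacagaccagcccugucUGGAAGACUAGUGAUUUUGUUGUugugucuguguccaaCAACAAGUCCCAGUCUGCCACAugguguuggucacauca
Mir9 (synonym Mir7b): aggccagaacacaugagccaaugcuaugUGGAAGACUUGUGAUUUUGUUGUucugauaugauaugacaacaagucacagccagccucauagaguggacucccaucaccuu
Mir7-1 lies at chr17:6278692-6278788, Mir8 at chr1:142215800-142215894 and Mir9 at chr9:1167436-1167545, all on the plus strand. The RefSeq symbols Mir8 and Mir9 stand for the miR-7a-2 and miR-7b genes here and are unrelated to miR-8 and miR-9. In the same annotation Mir7-1 lies inside Hnrnpk, which encodes an RNA-binding protein and is on the same strand, and Mir8 lies inside the noncoding gene LOC120099863, also on the same strand. Mir9 lies inside the pseudogene Rpl35l3. The gene table gives no exons, and no coordinates on rn6, the build in the submitters' processing notes, were used here. Mir7-1 and Mir8 hold the identical miR-7a-5p, 97 and 95 nt hairpins with 69.0% identity over their alignment, so the reads of miR-7a-5p cannot be assigned to either gene. The passenger strands differ and can be traced, miR-7a-1-3p to Mir7-1 and miR-7a-2-3p to Mir8. For Mir9 the table lists the guide alone.

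Values are normalized counts, that is reads of a miRNA divided by a size factor of its library, as deposited. A miRNA read spans most of the molecule, so levels of different miRNAs were compared without scaling by length. Every value is a whole multiple of one step of its library, and a step was taken as 1 read, an assumption that the files do not settle. On this assumption the libraries held between 8628309 and 14313839 reads on listed miRNAs, with fewer in CCI-ION replicates 2 and 3 than in any sham library, and the smallest value above 0 was worth 5 reads. The reads behind each value ranged from 681640 to 2730247 for miR-7a-5p, from 87248 to 269081 for miR-7b, from 874 to 1320 for miR-7a-2-3p and from 93 to 225 for miR-7a-1-3p. All 4 members were therefore measured well above that floor in all 6 libraries, and all 4 passed the filter on low values. A list of 6 miRNAs found in neurons of any brain region (miR-124-3p, miR-128-3p, miR-129-5p, miR-137-3p, miR-138-5p and miR-9a-5p) was above 0 in every library. In all, 485 of the 562 listed miRNAs were above 0 in every library. The presence of the 6 therefore cannot serve as a check of neuronal tissue, nor does it tell the ARC from other regions.

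The first comparison asked whether miR-7 levels in the ARC differed between CCI-ION and sham rats. Both guides had a lower mean in CCI-ION rats, at 0.489 of the sham mean for miR-7a-5p and 0.549 for miR-7b, and their groups did not overlap. Neither passed the threshold of the test across all miRNAs. Both passenger strands overlapped between the groups.

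For miR-7a-5p, the more abundant guide, sham replicates 1 to 3 stood at 3105403, 1900553 and 2301274 normalized counts. CCI-ION replicates 1 to 3 stood at 1351902, 830002 and 1389119 normalized counts. Every CCI-ION library was below every sham library, sham replicate 1 stood highest and CCI-ION replicate 2 lowest. The group means were 2435743 ± 613578 in sham and 1190341 ± 312617 in CCI-ION rats (SD, n = 3 per group). On the scale of log2(normalized count + 1) the difference, CCI-ION minus sham, was -1.04 (standard error 0.28, 95% interval -1.75 to -0.33). It did not pass the threshold of 0.05 (limma, adjusted p = 0.0828 by Benjamini-Hochberg over 555 miRNAs). By exact permutation the two-sided p was 0.1, below which 3 libraries against 3 cannot go.

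miR-7b, the guide with the same seed from a gene of its own, stood at 297979, 208940 and 226803 normalized counts for sham replicates 1 to 3. For CCI-ION replicates 1 to 3 the values were 138419, 106238 and 158495 normalized counts. The order of the libraries within each group was that of miR-7a-5p, and again no CCI-ION library reached a sham library. Means were 244574 ± 47105 in sham and 134384 ± 26361 in CCI-ION rats (SD, n = 3 per group). Its log2 difference of -0.87 (standard error 0.22, 95% interval -1.40 to -0.33) did not pass the threshold either (adjusted p = 0.0710 from limma). With miRNAs under a mean of 10 normalized counts left out it passed (adjusted p = 0.0447 from limma), while miR-7a-5p did not (adjusted p = 0.0532 from limma). As the guides differ at a single base, and the mismatches allowed in mapping are not given in the sources used here, reads could have been split between them, so the single value of miR-7b is uncertain.

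Lower values without overlap between the groups were found for 21.3% of all 555 miRNAs tested, 118 in number, and higher ones for 19.5%. An adjusted p under 0.05 was reached by 6.85% of the miRNAs, 3.42% with a lower and 3.42% with a higher value. Of the 4 members 2 were lower without overlap and 0 had an adjusted p under 0.05, and from so few members nothing particular to the family can be read. At an unadjusted p under 0.05, both guides were among the 17.5% of miRNAs that were lower in CCI-ION rats.

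The passenger strand of the miR-7a-2 gene, miR-7a-2-3p, stood at 1269.7, 1097 and 1048 normalized counts for sham replicates 1 to 3 and at 928, 1163 and 941 for CCI-ION replicates 1 to 3. CCI-ION replicate 2, lowest for both guides, was the highest of its group here and lay within the sham range. Means were 1138 ± 117 and 1010.5 ± 132 (SD, n = 3 per group), with a log2 difference of -0.17 (standard error 0.15, 95% interval -0.54 to 0.19, adjusted p = 0.433 from limma). With libraries scaled to their total reads the difference was 0.027, and the direction is therefore not given as a result.

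miR-7a-1-3p, the passenger strand of the gene inside Hnrnpk, stood at 142, 187 and 146 normalized counts for sham replicates 1 to 3 and at 166, 128 and 100.1 for CCI-ION replicates 1 to 3. The groups overlapped, as CCI-ION replicate 1 exceeded the lower sham libraries. Means were 158 ± 25.1 and 131 ± 32.9 (SD, n = 3 per group), and the log2 difference was -0.29 (standard error 0.23, 95% interval -0.85 to 0.28, adjusted p = 0.405 from limma). The intervals of both passenger strands include 0 and also falls of up to 0.54 and 0.85 on the log2 scale, so smaller changes could not be detected at this depth and number of libraries.

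**Figure D1:**
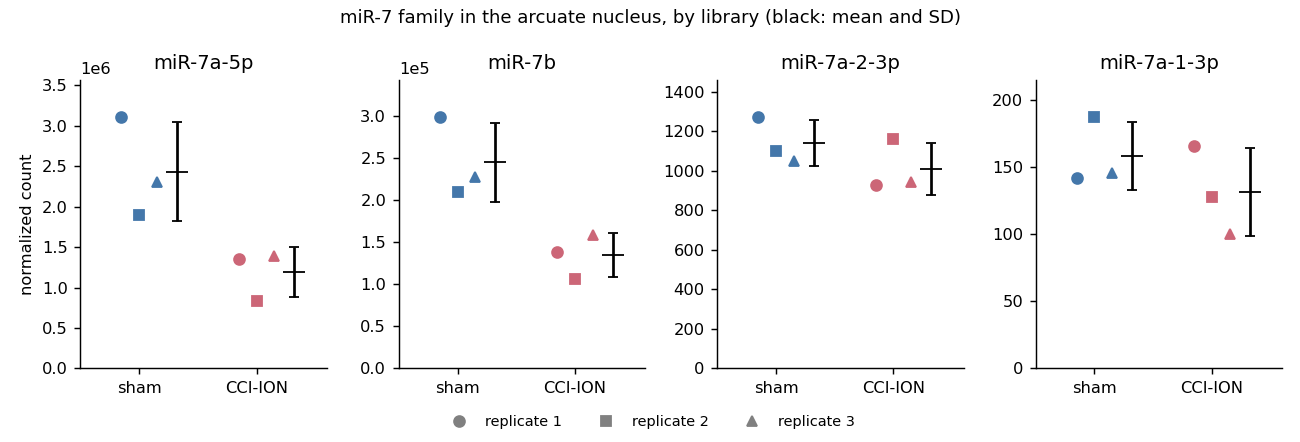
Normalized counts of the 4 members (vertical axes, each from 0 and on its own scale) in sham (blue) and CCI-ION (red) libraries, with marker shapes for the replicate and the mean ± SD of 3 libraries in black. The groups are apart for miR-7a-5p and miR-7b and overlap for miR-7a-2-3p and miR-7a-1-3p.

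The miR-7 guides made up a large part of all miRNA reads. miR-7a-5p was the most abundant miRNA in all 3 sham libraries and in CCI-ION replicate 3, while it ranked 2 in CCI-ION replicate 1 and 3 in CCI-ION replicate 2. It took 24.4%, 16.8% and 19.1% of the reads on listed miRNAs in sham replicates 1 to 3, and 12.9%, 7.90% and 13.5% in CCI-ION replicates 1 to 3. Counting error is small beside this spread: the 95% Wilson interval ran from 24.42% to 24.47% in sham replicate 1 and from 7.88% to 7.92% in CCI-ION replicate 2, and it covers counting error only, with a step taken as 1 read. The mean shares differed by -8.70 percentage points, CCI-ION minus sham (exact permutation test, two-sided p = 0.1, the smallest possible). miR-7b took 2.02% ± 0.279 of the reads in sham and 1.29% ± 0.264 in CCI-ION rats (SD, n = 3 per group) and ranked between 11 and 14 in sham and between 17 and 21 in CCI-ION libraries. Together the 4 members took 18.7% to 26.8% of the reads in sham and 8.92% to 15.0% in CCI-ION libraries.

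**Figure D2:**
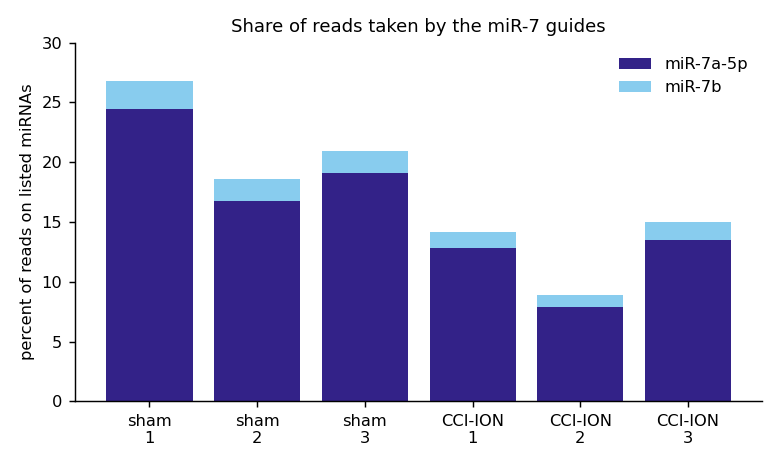
Percent of the reads on listed miRNAs (vertical axis) taken by miR-7a-5p (dark) and miR-7b (light) in each of the 6 libraries. The stacked shares stand between 18.7% and 26.8% in sham and between 8.92% and 15.0% in CCI-ION libraries.

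A change in a miRNA that takes so many reads weighs on any sum over miRNAs. Over all miRNAs the normalized counts summed to 12028311 ± 693797 in sham and 10445766 ± 109351 in CCI-ION libraries (SD, n = 3 per group), and miR-7a-5p alone made up 78.7% of the difference of these sums. Without the 4 members the sums were 9346697 ± 169953 and 9119899 ± 408211 (SD, n = 3 per group) and overlapped between the groups (exact permutation test, two-sided p = 0.5). Scaling to total reads therefore raised CCI-ION relative to sham values for every miRNA, miR-7a-5p included. The median log2 difference of all miRNAs moved from -0.01 to 0.17. The log2 difference of miR-7a-5p was -1.04 as deposited, -0.84 with total reads, -1.12 with upper quartiles and -0.99 with total reads without miR-7a-5p. Each scaling moves all miRNAs of a library alike, so the distance of miR-7a-5p from the median of all miRNAs hardly depends on it. That distance was -1.03, -1.004, -1.03 and -1.01 in the same order, and its constancy is by construction and no result.

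Among the 10 most abundant miRNAs, miR-9a-5p, a regulator of neural progenitors, was next after miR-7a-5p and had overlapping groups, at 1392227 ± 55332 normalized counts for sham and 1247795 ± 168367 for CCI-ION rats (SD, n = 3 per group). Reads of miR-7a-5p per read of miR-9a-5p were 2.25, 1.31 and 1.71 in sham replicates 1 to 3 and 0.949, 0.674 and 1.28 in CCI-ION replicates 1 to 3, without overlap between the groups. The other miRNAs of the 10 were miR-99a-5p, miR-127-3p, miR-125b-5p, let-7f-5p, miR-128-3p, let-7c-5p, let-7i-5p and miR-26a-5p, with log2 differences from -0.91 (miR-128-3p) to 0.32 (miR-99a-5p). Of the 21 miRNAs whose mean reached 100000 normalized counts, 14 had a lower mean in CCI-ION rats, and miR-7a-5p had the lowest log2 difference, followed by miR-128-3p and miR-7b. Over all 555 miRNAs the log2 difference of miR-7a-5p ranked 45 and that of miR-7b 61 from the lowest.

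**Figure D3:**
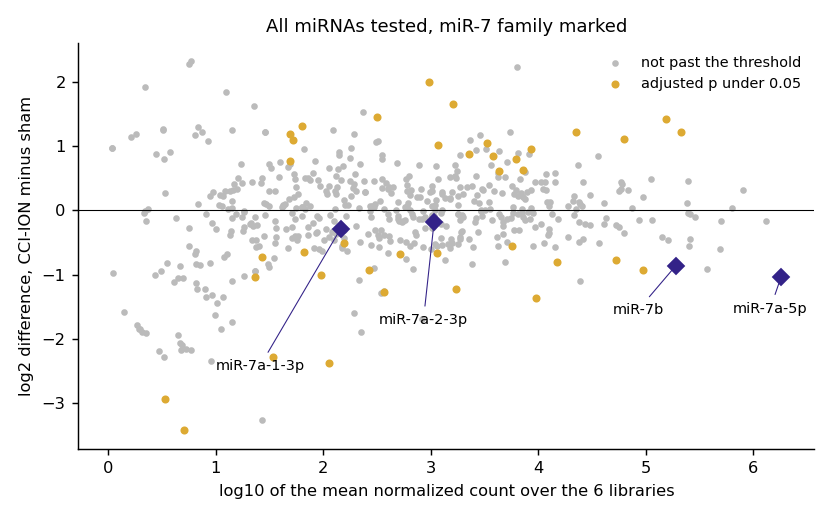
Log2 difference between CCI-ION and sham rats (vertical axis) against log10 of the mean normalized count (horizontal axis) for the 555 miRNAs tested, in yellow where the adjusted p from limma was under 0.05, with the 4 members as diamonds. miR-7a-5p lies at the far right at -1.04 and miR-7b at -0.87, while the passenger strands lie closer to 0.

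Guide and passenger strands were compared within each library, so, apart from the pseudocount of 1, their log2 ratio does not depend on the scaling of that library. miR-7a-5p had 2446, 1732 and 2196 reads per read of miR-7a-2-3p in sham replicates 1 to 3 and 1457, 714 and 1476 in CCI-ION replicates 1 to 3. The groups did not overlap, and the log2 ratio was 11.04 ± 0.25 in sham and 10.17 ± 0.60 in CCI-ION rats (SD, n = 3 per group). Its difference of -0.87 (standard error 0.34, 95% interval -1.71 to -0.02) had an unadjusted p of 0.0462 and did not pass the threshold over 195 pairs of strands (adjusted p = 0.155 from limma). Lower ratios without overlap occurred in 24.6% of the 195 pairs and an unadjusted p under 0.05 with a lower ratio in 14.9%, while 7.18% of the pairs passed the threshold in either direction and 4.1% with a lower ratio. Against miR-7a-1-3p, miR-7a-5p had 21913, 10160 and 15782 reads per read in sham and 8163, 6492 and 13875 in CCI-ION replicates 1 to 3. These groups overlapped, since CCI-ION replicate 3 exceeded sham replicate 2, with a log2 difference of -0.75 (standard error 0.40, 95% interval -1.76 to 0.25, adjusted p = 0.259 from limma). As both genes yield miR-7a-5p, each ratio sets the guide of both genes against the passenger of one.

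The bias toward the guide was strong in both pairs. By the size of the mean log2 ratio, miR-7a-5p over miR-7a-1-3p ranked 5 and miR-7a-5p over miR-7a-2-3p ranked 20 of the 195 pairs, which were led by miR-26a, miR-128-2, let-7g and miR-29a. Both ranks set the guide of 2 genes against the passenger of 1, so they run high against pairs from a single gene. Against both passengers together, miR-7a-5p had 1480 to 2200 reads per read in sham and 643 to 1334 in CCI-ION libraries. This ratio was not ranked. The passenger of Mir8 was the more abundant of the 2 passengers: miR-7a-2-3p exceeded miR-7a-1-3p by 8.96-fold, 5.87-fold and 7.18-fold in sham and by 5.60-fold, 9.10-fold and 9.40-fold in CCI-ION replicates 1 to 3. These ratios overlapped fully between the groups (exact permutation test, two-sided p = 0.7). How passenger levels relate to the output of each gene was not measured here.

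**Figure D4:**
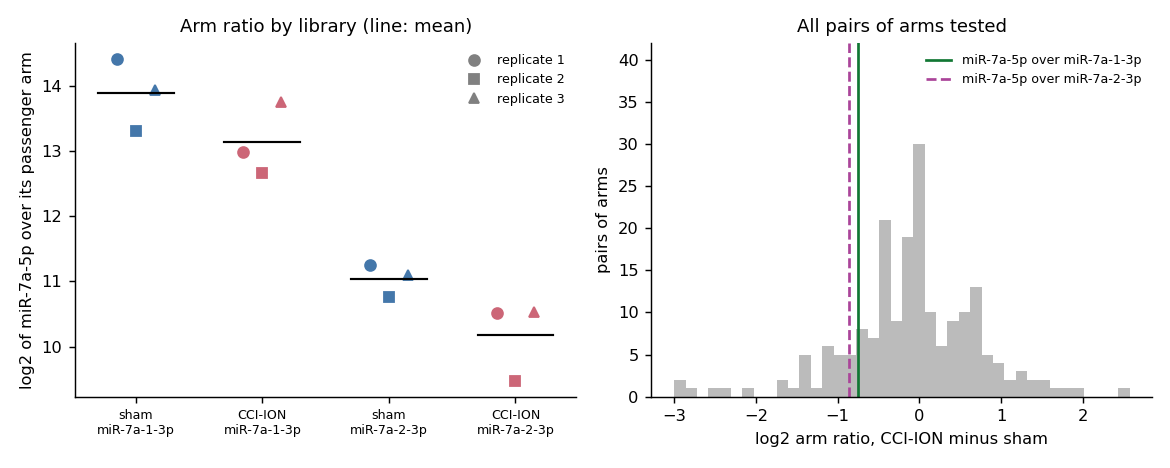
Left, log2 ratio of miR-7a-5p to each passenger strand (vertical axis) by library, with marker shapes for the replicate, blue for sham, red for CCI-ION and a line at the group mean. Right, number of strand pairs (vertical axis) by their log2 difference in ratio, CCI-ION minus sham, for all 195 pairs, with lines at -0.75 for miR-7a-1-3p and -0.87 for miR-7a-2-3p, both inside the main body of the histogram.

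The proportion of the guides to each other overlapped between the groups. miR-7b was at 9.60%, 10.99% and 9.86% of miR-7a-5p in sham replicates 1 to 3 and at 10.2%, 12.8% and 11.4% in CCI-ION replicates 1 to 3. Means were 10.1% ± 0.744 and 11.5% ± 1.28 (SD, n = 3 per group), with a two-sided p of 0.2 by exact permutation. Of the 363 other miRNAs with a mean of at least 100 normalized counts, miR-7b was the one whose log2 values over the 6 libraries were most like those of miR-7a-5p (Pearson's r = 0.99), a description in which the group difference and any reads they exchange are included. Next were miR-374-3p (r = 0.97), at 344 ± 165 normalized counts for sham and 106 ± 70.1 for CCI-ION rats, and miR-190b-5p (r = 0.97), at 187 ± 35.5 and 39.4 ± 21.0 (SD, n = 3 per group). miR-190b-5p passed the threshold (log2 difference -2.38, adjusted p = 0.0497 from limma) and miR-374-3p did not (log2 difference -1.89, adjusted p = 0.142 from limma). Both were poor in GC, at 23.8% for miR-190b-5p and 27.3% for miR-374-3p. The passenger strands miR-7a-2-3p (r = 0.35) and miR-7a-1-3p (r = 0.30) ranked 129 and 138 in likeness to miR-7a-5p, the guide of their hairpins.

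GC content was weakly related to the difference between the groups (Spearman's rank correlation 0.14), mainly through the miRNAs lowest in GC. For the 507 tested miRNAs with a sequence, sorted into 6 classes by GC content, the median log2 difference was -0.34 in the class of 22.7% to 38.1% GC, which holds both guides, and lay between -0.09 and 0.09 in the other 5. In that lowest class 58 of 86 miRNAs were lower in CCI-ION rats, 8 of them past the threshold and 0 higher past it. Libraries differed in this class by the median deviation from each miRNA's mean, which was 0.31, 0.12 and 0.18 in sham replicates 1 to 3 and 0.11, -0.52 and -0.18 in CCI-ION replicates 1 to 3, on the log2 scale. Sham replicate 1 and CCI-ION replicate 2, the highest and the lowest library for miR-7a-5p and miR-7b, were also the highest and the lowest here. With the median of its GC class subtracted in each library, a correction chosen after the data were seen, miR-7a-5p stood at 2499978, 1745057 and 2036415 in sham and 1251110, 1186195 and 1568981 in CCI-ION replicates 1 to 3. The groups remained apart, and the log2 difference shrank to -0.64 (standard error 0.19, adjusted p = 0.0900 from limma). That of miR-7b shrank to -0.47 (adjusted p = 0.138 from limma), again without overlap. After the correction the groups of miR-7a-2-3p were narrowly apart too, at 1065 to 1347 in sham and 898 to 1057 in CCI-ION libraries. Its log2 difference was -0.29 (adjusted p = 0.195 from limma). The share of all miRNAs without overlap after this correction was not counted, so nothing is read from the members being apart. For miR-7a-1-3p the corrected log2 difference was -0.25 with overlapping groups, and that of the ratio of miR-7a-5p to miR-7a-2-3p was -0.35 (adjusted p = 0.319 from limma). Within its GC class, miR-7a-5p ranked 18 and miR-7b 25 of 86 from the lowest log2 difference.

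Other miRNAs of the circuit were few. Of the 4 strands looked for, miR-153-3p and miR-153-5p were listed under their own names, and miR-671 was listed without a strand and is the 3p strand by its position in the hairpin, so the strand known to cleave Cdr1as, miR-671-5p, was not analysed here. None of the levels passed the threshold. The log2 difference was -0.26 for miR-153-3p (adjusted p = 0.815 from limma), a miRNA that also targets alpha-synuclein, and 0.29 for miR-671 (adjusted p = 0.164 from limma). miR-671 averaged 888 ± 26.4 normalized counts for sham and 1088 ± 113 for CCI-ION rats (SD, n = 3 per group), without overlap. miR-153-5p stood at 68.6, 30.8 and 43.0 normalized counts for sham replicates 1 to 3 and at 9.30, 0 and 9.69 for CCI-ION replicates 1 to 3 (log2 difference -3.26, adjusted p = 0.102 from limma). The ratio of miR-153-5p to miR-153-3p passed the threshold (log2 difference -3.00, adjusted p = 0.0383 from limma), among the 4.1% of the 195 pairs that did so with a lower ratio. With CCI-ION values this close to the floor, the size of both differences depends on the pseudocount.

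A list of 9 miRNAs was used for neuroendocrine and pituitary cells, where miR-7 is also enriched. Nothing measured here shows that these miRNAs came from such cells. All 9 of the list (miR-375-3p, miR-200a-3p, miR-200b-3p, miR-200c-3p, miR-141-3p, miR-429, miR-182, miR-183-5p and miR-96-5p) had a higher mean log2 value in CCI-ION rats, 3 with an unadjusted p under 0.05, against 15.5% of all miRNAs tested, and 0 past the threshold of limma, with a median of 0.89 against -0.01 over all miRNAs. Their summed level ranged from 16156 to 23033 normalized counts in sham and from 20070 to 51001 in CCI-ION libraries. Apart from miR-375-3p and miR-182, each of the 9 had CCI-ION replicate 1 within its sham range. The 9 were counted singly, whether or not they share a cluster, so they need not be independent. miR-375-3p, the islet and pituitary miRNA, had 3613, 2903 and 3513 normalized counts in sham and 4451, 6633 and 4197 in CCI-ION replicates 1 to 3 (log2 difference 0.58, adjusted p = 0.137 from limma).

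Over all 555 miRNAs tested, 3.42% passed the threshold with a lower and 3.42% with a higher value. Groups without overlap were found for 21.3% with lower and 19.5% with higher values. Of the 6 neuronal miRNAs, 1 fell past the threshold, miR-124-3p (log2 difference -0.78, adjusted p = 0.0435 from limma), and the list had a median of -0.61. Their summed level ranged from 2041436 to 2229136 normalized counts in sham and from 1616061 to 2011890 in CCI-ION libraries, without overlap. The largest part of this sum was miR-9a-5p, whose own groups overlapped. A lower mean log2 value was found for 5 of the 6. miR-129-5p went the other way without overlap, at 200122 to 211908 normalized counts in sham and 267822 to 312949 in CCI-ION libraries (log2 difference 0.45, adjusted p = 0.0762 from limma). Among 3 oligodendrocyte miRNAs, miR-338-3p fell past the threshold, and the summed level was 9165 to 14031 in sham and 7133 to 7612 in CCI-ION libraries. miR-219a-5p was at 0 in all CCI-ION libraries and in sham replicate 2. In the opposite direction, 2 of 4 miRNAs of the vessel wall and endothelium, miR-143-3p and miR-145-5p, rose past the threshold, and the summed level went from 80232 to 105934 in sham to 151501 to 165454 in CCI-ION libraries. This sum was carried by miR-143-3p and miR-126a-3p, while miR-126a-5p went the other way without overlap, at 644 to 1047 normalized counts in sham and 237 to 643 in CCI-ION libraries, and did not pass the threshold (log2 difference -0.91, adjusted p = 0.205 from limma). Of the other lists 0 miRNAs passed the threshold. Summed levels ranged from 2707 to 3404 in sham and 2170 to 2702 in CCI-ION libraries for 5 immune miRNAs, a sum carried by miR-150-5p. The median log2 difference of these 5 was 0.06, and miR-223-3p was at 45.6 ± 12.1 normalized counts for sham and 87.7 ± 8.55 for CCI-ION rats (SD, n = 3 per group), without overlap (adjusted p = 0.0597 from limma). For the 3 listed of 4 erythrocyte miRNAs the sums, carried by miR-486, ranged from 2837 to 3798 and from 2898 to 3660. Among them miR-451-5p stood at 137 to 242 normalized counts in sham and 366 to 473 in CCI-ION libraries, without overlap (log2 difference 1.07, adjusted p = 0.0649 from limma). For 5 miRNAs of choroid plexus and ependyma they ranged from 65993 to 90237 in sham and 85001 to 108839 in CCI-ION libraries. The part of these shifts in the miR-7 values was not tested, and in bulk tissue fewer cells of a type cannot be told apart from less RNA per cell.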

How the data were processed

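Small RNA of 6 ARC libraries (3 sham, 3 CCI-ION) was analysed at the level of mature miRNAs. The authors deposited a signal per miRNA and library, which was read as reads divided by a size factor: each value is a whole multiple of a step of its library, to within 0.001 of a step. The submitters' processing notes name cutadapt 1.14, Bowtie 1.1.1 and rn6, with no role or order; counting, miRNA annotation and normalization are not given in the sources used here. Since the smallest value is 5 steps, no count model was used. log2(normalized count + 1) was compared with limma 3.58.1 (R 4.3.3), two-sided, with no covariates, over the 555 miRNAs whose mean reached 1, adjusted by Benjamini-Hochberg at 0.05. Log2 ratios of 195 pairs of 5p and 3p strands were compared in the same way. Single values used exact permutation tests, 12 of them for ratios, shares and sums, unadjusted, with 0.1 the smallest p possible. Scripts were tested on simulated data. Members and lists were chosen with earlier results of these data known. Named were the members, the 10 most abundant miRNAs, the 3 most like miR-7a-5p, and the circuit, neuroendocrine and neuronal lists; miR-338-3p, miR-219a-5p, miR-143-3p, miR-145-5p, miR-126a-3p, miR-126a-5p, miR-150-5p, miR-223-3p, miR-451-5p, miR-486 and the strand pairs with the largest bias were named after their values were seen. Sequences came from RefSeq (GRCr8), which matched 512 of 562 names. Alternatives covered scaling, filter, pseudocount, replicate block, left-out libraries and, added after the data were seen, GC correction and an intensity trend.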

Additional observations from a re-analysis of the deposited data

How the results depend on the processing

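miR-7a-5p and miR-7b stayed lower in CCI-ION rats under all 16 alternatives each, with log2 differences from -1.21 to -0.64 and from -0.995 to -0.47. Most of these could not have turned the direction. Filter, pseudocount, replicate block and intensity trend left the difference as it was or nearly so. Groups without overlap also keep their order when 1 library is left out. Only the scalings and the GC correction could have turned it. With an intensity trend in limma, added after the data were seen, both guides passed the threshold (-1.04, adjusted p = 0.0252, and -0.87, adjusted p = 0.0215), and miR-7b (-0.87) also passed with means under 10 left out. miR-7a-2-3p turned to 0.027 with total reads. Neither strand ratio passed the threshold under any of 11 alternatives. The causes of these changes were not tested. With means under 10 left out, fewer miRNAs were tested, and the standard error of miR-7b was 0.208, against 0.216 in the main fit.

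Calls over all miRNAs were 38 (19 lower, 19 higher; 50% higher). They were 63 (31 lower, 32 higher) with means under 10 left out, 88 (44 lower, 44 higher) with the trend, 51 (9 lower, 42 higher; 82.4% higher) with total reads, 31 (10 higher; 32.3% higher) with upper quartiles, and 49 (30 higher; 61.2% higher) with total reads without miR-7a-5p. With the replicate block they were 3 (2 lower, 1 higher; 154 at an unadjusted p under 0.05), and with GC correction and the replicate block 4 (2 lower, 2 higher). Strand pairs past the threshold were 14, 23 with means under 10 left out, and 0 with the replicate block, with or without GC correction. The labels do not say whether replicate numbers pair the libraries. The correlations of deviations were -0.09, 0.30 and -0.18, which with 3 libraries per group cannot settle this. With the block alone, adjusted p from limma was 0.0937 for miR-7a-5p and 0.122 for miR-7b.

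Leaving out 1 library gave 7 to 43 calls (4 to 21 lower, 3 to 22 higher) and 3 to 14 strand pairs. Calls were 9, 11 and 7 without sham replicates 1, 2 and 3, and 11 without CCI-ION replicate 3. Strand pairs were 4, 9 and 3 without sham replicates 1, 2 and 3, and 6 without CCI-ION replicate 1. The log2 difference ranged from -1.21 to -0.80 for miR-7a-5p and from -0.995 to -0.71 for miR-7b, lowest in size without CCI-ION replicate 2. For miR-7a-2-3p it ranged from -0.28 to -0.093, lowest in size without sham replicate 1, and for miR-7a-1-3p from -0.47 without CCI-ION replicate 1 to -0.11 without CCI-ION replicate 3, and it was -0.086 with total reads. The log2 ratio of miR-7a-5p to miR-7a-2-3p differed by -0.52 between the groups without CCI-ION replicate 2, against -0.87 with all 6 libraries. The share of miR-7a-5p differed by -10.4 to -6.53 percentage points.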
